A study of Mus musculus with 8 samples.

Results

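The adrenomedullin, VEGF and angiopoietin genes described here are 10 genes of the deposited table, taken by symbol from its 13687 rows: Adm, Calcrl, Ramp2, Vegfa, Vegfb, Vegfc, Angpt1, Angptl4, Nrp1 and Nrp2. All 10 had a row and all 10 passed the filter on low values, which kept 13665 genes. The set was chosen by the level of Adm, which was lower on stretch in all 4 animals, so the stretch change of Adm is given as a description with no test. The values are from primary mouse mesothelial cells (MCs), which were obtained by digestion of the parietal peritoneum, grown to confluence, and then left in static conditions or exposed to mechanical stretching for 24 h. WT cells came from littermates of Cav-1- mice, in which the caveolin-1 gene is disrupted in every cell (strain B6.Cg-CAV1tm1mls/J, CAV1-/- below). There were 2 animals of each genotype and each gave 1 static and 1 stretched culture, so that 8 polyA RNAseq libraries fall into 4 groups of n = 2. The animals are called 1 and 2 within each genotype, and no other treatment is named in the labels. The ages of the animals are not given in the sources used here.

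Adrenomedullin, the peptide encoded by Adm, is a vasodilator that acts on endothelial and smooth muscle cells through the receptor Calcrl, which binds it only when paired with a receptor activity-modifying protein, Ramp2 or Ramp3. VEGF ligands drive the growth of blood and lymphatic vessels through the receptor tyrosine kinases Flt1, Kdr and Flt4, with the neuropilins Nrp1 and Nrp2 as co-receptors that also bind class 3 semaphorins. Angiopoietin 1 stabilises vessels through the receptor Tek, while Angptl4 is a secreted inhibitor of lipoprotein lipase. Adm, Vegfa and Angptl4 are also known as targets of hypoxia-inducible factor (HIF). The peritoneal mesothelium is a known source of VEGF, and new vessels are a feature of peritoneal fibrosis.

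The promoters of Adm and Vegfa are shown because both genes are HIF targets and the level of Adm was used to choose the set. The RefSeq promoter table (GRCm38.p6) matched 7 of the 10 genes and had no entry for Ramp2, Angpt1 and Angptl4. Each line gives the 250 bases before the start of the gene, 5′ to 3′ on the strand of the gene, at chr7:110627407-110627656 (plus strand) for Adm and chr17:46032378-46032627 (minus strand) for Vegfa. Capitals mark the letters ACGTG or GCGTG on either strand (CACGT and CACGC on the other), the core of the HIF response element, which do not overlap each other here.
Adm: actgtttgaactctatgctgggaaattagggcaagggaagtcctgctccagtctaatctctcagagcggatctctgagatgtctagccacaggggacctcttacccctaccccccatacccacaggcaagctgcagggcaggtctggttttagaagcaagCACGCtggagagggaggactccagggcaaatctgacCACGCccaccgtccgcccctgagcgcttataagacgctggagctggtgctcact
Vegfa: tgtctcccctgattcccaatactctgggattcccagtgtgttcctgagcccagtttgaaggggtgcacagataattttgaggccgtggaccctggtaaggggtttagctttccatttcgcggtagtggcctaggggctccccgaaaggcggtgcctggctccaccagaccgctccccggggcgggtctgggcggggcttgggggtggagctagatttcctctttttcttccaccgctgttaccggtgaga
The Adm window held 2 such cores, both read as CACGC, at positions -90 to -86 and -54 to -50 from the gene start, and a TATAA from -27 to -23. The Vegfa window held 0 cores and had GGGCGG, the letters of a GC box, at -72 to -67 and at -62 to -57. A second RefSeq start of Vegfa, inside the gene, held 2 cores in its window, as did Nrp2 and Vegfb, while Nrp1 held 1 and Calcrl and Vegfc held 0. Of 32851 promoter windows of the same length, 38.6% held at least 1 core on either strand, 32.7% held GGGCGG and 22.8% held TATAA. A match describes the letters of the window and not a bound site.

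The libraries held 9777738 to 21203938 reads, and each of the 4 stretched libraries was deeper than every static library, so depth and stretching cannot be told apart by design. Values are CPM normalized by the TMM method, and 3 reads, the smallest amount taken as detectable, correspond to 0.146 to 0.308 CPM, a floor that covers counting error only. Cav1, the targeted gene, was at 247.5 to 763.7 CPM in WT and at 12.8 to 34.5 CPM in CAV1-/- cultures. Of 15 mesothelial markers 14 had a row, Calb2 having none, and their summed level was 3122.9 to 4137.5 CPM in WT and 926.6 to 1178.3 CPM in CAV1-/- cultures. The 12 leukocyte markers summed to 5261.8 and 5135.8 CPM in both cultures of CAV1-/- animal 1 against 78.0 to 486.3 CPM in the other libraries, and 12 of 12 were highest in that animal. Of 14 blood endothelial markers 8 had a row, and Pecam1, Tie1, Erg, Cldn5, Robo4 and Mmrn2 had none. The 8 were Cdh5, Kdr, Flt1, Tek, Vwf, Emcn, Egfl7 and Esam. Their summed level was 58.8 to 121.9 CPM, of which Kdr made up 7.75 to 66.0 CPM over the libraries. The 8 fibroblast markers summed to 459.1 to 1199.8 CPM in animal 1 of each genotype and to 1703.1 to 2224.4 CPM in animal 2. Of 9 pericyte and smooth muscle markers 6 had a row, and these summed to 410 to 750.4 CPM in animal 1 and 135.5 to 254.1 CPM in animal 2. In such cultures fewer cells of a type and less RNA per cell cannot be told apart.

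Compared per kb of exon, the 10 genes spanned levels from Vegfa, with a mean of 61.1 CPM per kb over the 8 libraries (range 31.8 to 92.7), to Ramp2 with 0.143 (range 0 to 0.416). Angptl4 followed Vegfa at 30.5 (range 18.5 to 41.3) and Nrp2 at 24.8 CPM per kb (range 12.4 to 44.4), and these ranges overlapped. Vegfc, Nrp1, Adm and Vegfb lay close together at 13.7, 12.3, 11.99 and 10.8 CPM per kb, with ranges that overlapped one another. Calcrl, the adrenomedullin receptor, stood below all of these at 1.195 CPM per kb (range 0.874 to 2.09), and its range did not overlap that of Angpt1, whose mean was 0.254 (range 0.0672 to 0.641). Adm, Vegfa, Vegfb and Vegfc were thus at higher levels per kb than Calcrl, and Ramp2 was near the limit of detection in several libraries.

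**Figure D1:**
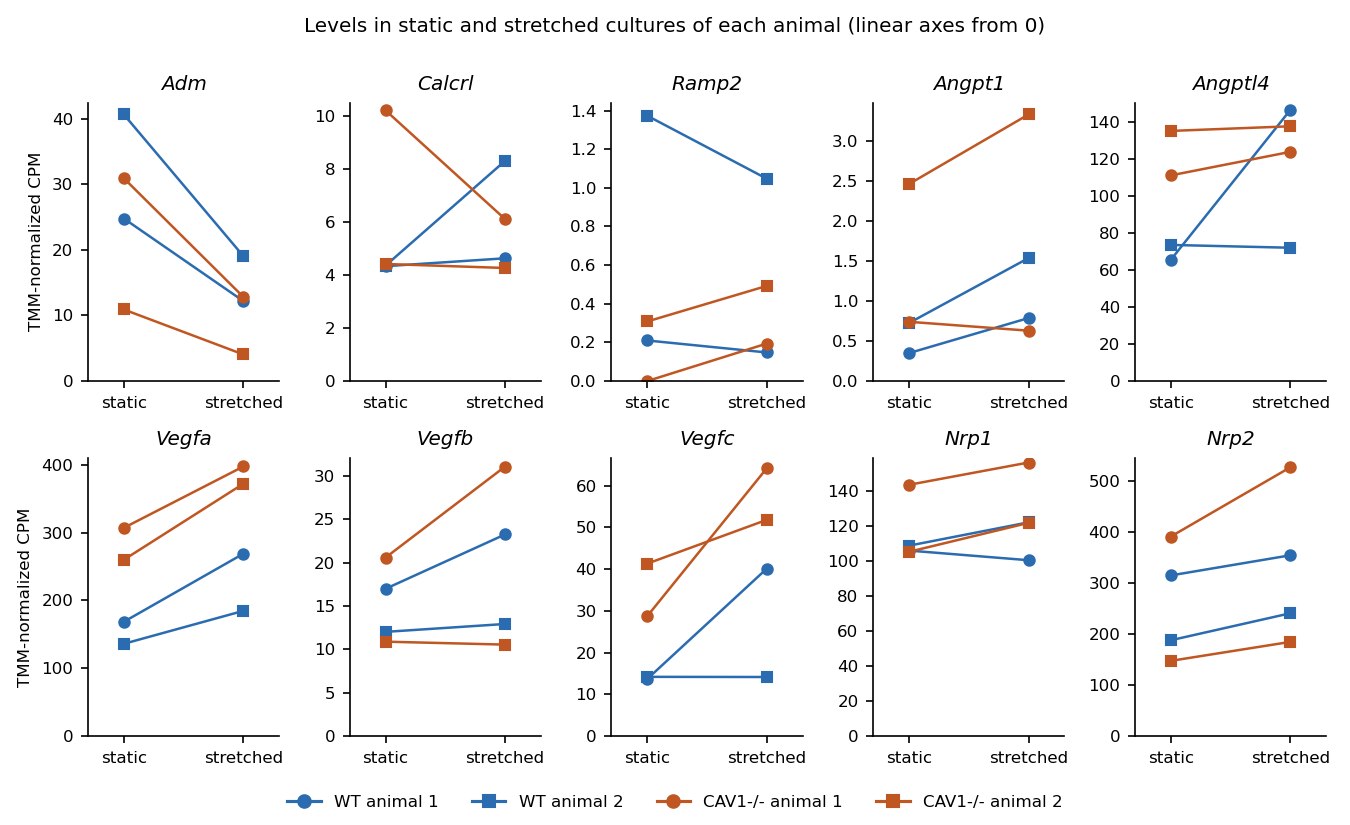
Level of each of the 10 genes in TMM-normalized CPM (vertical axis, linear, from 0) in the static and the stretched culture of the same animal, joined by a line. WT animals are blue and CAV1-/- animals orange, with circles for animal 1 and squares for animal 2. All 4 lines of Adm go down, and all 4 lines of Vegfa and Nrp2 go up.

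Adm (ENSMUSG00000030790) lies on the plus strand at chr7:110627661-110629820 of GRCm38. In WT MCs it was at 24.8 and 40.6 CPM in static culture and at 12.2 and 19.0 CPM on stretch. In CAV1-/- MCs it was at 30.9 and 10.9 CPM in static culture and at 12.8 and 4.05 CPM on stretch. The static and stretched values overlapped within CAV1-/- cells because the 2 animals differed from each other, whereas within each animal the stretched culture was the lower. The stretched culture held 0.492 and 0.469 times the static level in WT animals 1 and 2, and 0.414 and 0.372 times in CAV1-/- animals 1 and 2. On the log2(CPM + 1) scale used for all log2 differences, the mean change was -1.01 in WT, -1.22 in CAV1-/- and -1.12 over both. Among all 13665 genes, 2303 (16.9%) were lower in all 4 animals, and 52 (0.381%) were also lower by at least 1 on the log2 scale on average, which are counts that the choice of Adm used and are given for scale only. The reads behind these values were 74 to 503 per library.

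**Figure D2:**
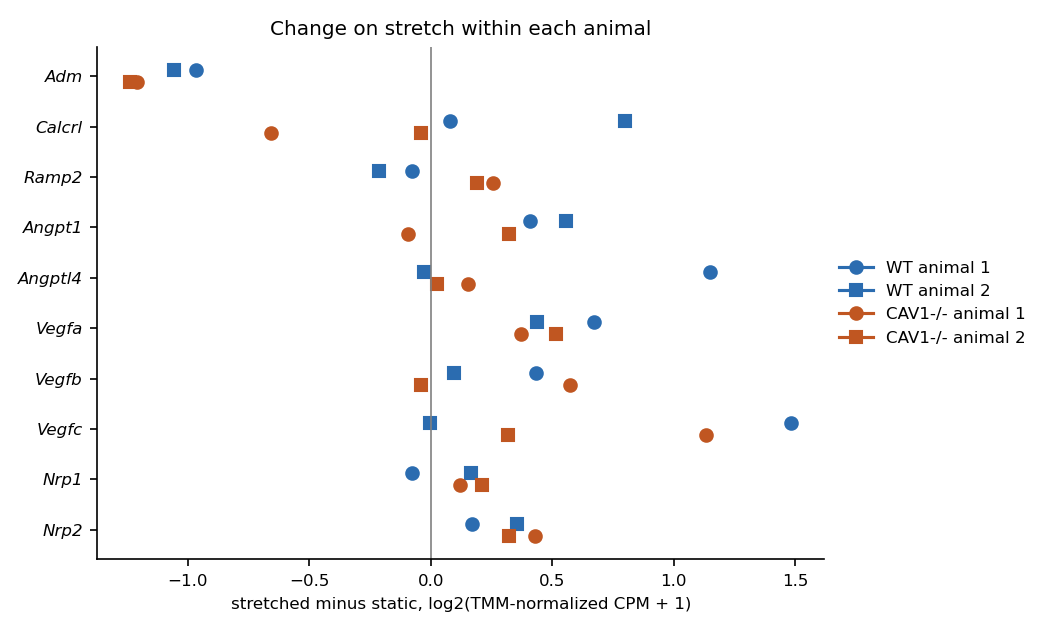
Stretched minus static level within each animal, in log2(TMM-normalized CPM + 1), for each of the 10 genes. Blue marks WT and orange CAV1-/-, with circles for animal 1 and squares for animal 2. Adm lies between -1.24 and -0.97 in the 4 animals, Vegfa between 0.37 and 0.67 and Nrp2 between 0.17 and 0.43.

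The receptor side of the adrenomedullin system was low. Calcrl was at 4.34 and 4.36 CPM in static and 4.64 and 8.32 CPM in stretched WT MCs, and at 10.2 and 4.42 CPM in static and 6.11 and 4.27 CPM in stretched CAV1-/- MCs. It was higher on stretch in both WT animals and lower in both CAV1-/- animals, but in 1 animal of each genotype the change was small, at 1.07 times and 0.966 times. Such a split between the genotypes was seen for 2 members, Calcrl and Ramp2, beside 8.98% of all genes. The averaged difference was 0.04 on the log2 scale (SE 0.30, limma adjusted p = 0.999), and the difference of the stretch change between the genotypes was -0.79 (SE 0.59, limma unadjusted p = 0.231, adjusted p = 1). Ramp2, which Calcrl needs to bind adrenomedullin, had 0 to 17 reads per library and no more than 4 in 5 of them: 0.210 and 1.37 CPM in static and 0.148 and 1.05 CPM in stretched WT MCs, and 0 and 0.308 CPM in static and 0.194 and 0.493 CPM in stretched CAV1-/- MCs. Its value is uncertain because 1103 bases of its annotated exons also belong to Vps25 on the same strand, which had a mean of 35.2 CPM. Ramp3, the other partner of Calcrl for adrenomedullin, was at 0.280 to 2.53 CPM in WT and 4.32 to 6.68 CPM in CAV1-/- cultures. All 4 CAV1-/- cultures thus lay above every WT culture for Ramp3, as for 3.86% of all genes and 0 members, and the genotype difference was 1.87 in static (SE 0.45, unadjusted p = 0.00558, adjusted p = 0.264) and 1.38 in stretched culture (SE 0.45, unadjusted p = 0.0214, adjusted p = 0.620, limma).

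Ackr3, a scavenger receptor for adrenomedullin and chemokines, was at 2.40 to 3.07 CPM in WT cultures. In CAV1-/- animals 1 and 2 it went from 9.31 and 21.5 CPM in static to 2.96 and 11.4 CPM in stretched culture, and the genotype difference in static culture was 1.95 (SE 0.60, unadjusted p = 0.0166, adjusted p = 0.431, limma). Ramp1, which pairs with Calcrl to bind the related peptide CGRP, was at 0.888 to 1.91 CPM in WT and 0.164 to 0.776 CPM in CAV1-/- cultures, so these ranges did not overlap (5.88% of all genes were lower in this way, and 0 members), with a static difference of -0.90 (SE 0.35, adjusted p = 0.570). Adm2, encoding intermedin, was at 2.18 to 8.53 CPM. Calca and Calcb, which encode the CGRP peptides, were at 0 reads in both cultures of CAV1-/- animal 1 and reached 11.1 and 5.41 CPM in WT animal 2. Calcr and Gpr182 had no row. Of the 12 other genes of the adrenomedullin system with a row, 5 were higher and 7 lower on stretch on average, with a median log2 difference of -0.11 against -0.01 over all 13665 genes, and 0 passed the threshold with or without the animal as a block. Pam, the enzyme that amidates adrenomedullin to its active form, was lower on stretch in 4 of 4 animals, by -0.25 on average (unadjusted p = 0.118, adjusted p with the animal as a block 0.210, limma), as 16.9% of all genes were lower in all 4. Adm2 was higher in 4 of 4 animals, by 0.29 on average (adjusted p = 0.999, with the block 0.317), as 14.5% of all genes were.

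Vegfa (ENSMUSG00000023951, minus strand, chr17:46016993-46032369), the main inducer of vessel growth, was higher on stretch in 4 of 4 animals. It was at 168.5 and 136.1 CPM in static and 268.8 and 184.6 CPM in stretched WT MCs. In CAV1-/- MCs it was at 306.9 and 259.9 CPM in static and 397.3 and 371.9 CPM in stretched culture. The stretched values lay above the static ones without overlap within each genotype, as for 3 members in WT (13.9% of all genes) and 2 in CAV1-/- MCs (12.4% of all genes). The stretched culture held 1.60 and 1.36 times the static level in the WT animals and 1.29 and 1.43 times in the CAV1-/- animals. The log2 difference averaged over genotypes was 0.50 (SE 0.15, 95% interval 0.13 to 0.87), with an unadjusted p of 0.0161 and an adjusted p of 0.984 by limma without a block. With the animal as a block, Vegfa rose at an adjusted p of 0.0327 by limma and 0.0427 by edgeR's quasi-likelihood test. Without both cultures of CAV1-/- animal 1 the difference was 0.53 and the blocked adjusted p was 0.151, while the number of genes called with the block went from 201 to 0. The adjusted p of the average ranged from 0.0327 to 1 over the alternatives. The difference was 0.55 in WT (SE 0.21, unadjusted p = 0.0407) and 0.44 in CAV1-/- MCs (SE 0.21, unadjusted p = 0.0829), both with an adjusted p of 1, and the interaction was -0.11 (95% interval -0.85 to 0.63, adjusted p = 1). The ratio of Vegfa to Adm CPM was 6.81 and 3.35 in static and 22.1 and 9.70 in stretched WT cultures. In CAV1-/- cultures this ratio was 9.93 and 23.9 in static and 31.0 and 91.8 on stretch. The fall of Adm that chose the set enters the ratio, so it is given as a description only.

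In the average stretch comparison, 0 of the 9 members tested were called by limma without a block, as were 0 of all genes, and 1 member, Vegfa, had an unadjusted p of at most 0.05, beside 4.73% of all genes. The quasi-likelihood test of edgeR without a block called 0 members and DESeq2 called 0, with 0 and 39 genes in all. With the animal as a block limma called 1 of the 9, Vegfa, beside 1.47% of all genes (0.615% higher and 0.856% lower, 84 and 117 genes). The blocked adjusted p was 0.301 to 0.908 for Calcrl, Vegfb, Angpt1, Angptl4 and Nrp1, and 0.912 for Ramp2 (limma). The members higher in all 4 animals were Vegfa and Nrp2, 2 of 10 beside 14.5% of all genes.

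Vegfc, the ligand of Flt4 that drives lymphatic growth, was at 13.7 and 14.2 CPM in static and 40.1 and 14.2 CPM in stretched WT MCs, and at 28.8 and 41.3 CPM in static and 64.2 and 51.8 CPM in stretched CAV1-/- MCs. Its stretched to static ratio was 2.93 and 0.997 in the WT and 2.23 and 1.25 in the CAV1-/- animals, so that animal 1 of each genotype showed the larger ratio. The averaged difference was 0.73 (SE 0.32, adjusted p = 0.984, with the animal as a block 0.171, limma). Vegfb, a ligand of Flt1, was at 17.0 and 12.03 CPM in static and 23.3 and 12.9 CPM in stretched WT MCs, and at 20.6 and 10.9 CPM in static and 31.1 and 10.6 CPM in stretched CAV1-/- MCs. Vegfb was higher in animal 1 than in animal 2 of each genotype in every condition, and its averaged stretch difference was 0.26 (SE 0.40, adjusted p = 0.999).

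The VEGF ligands outside the 10 genes went in both directions on stretch. Figf, which encodes VEGF-D, the second ligand of Flt4, was at 31.5 and 40.3 CPM in static and 15.7 and 19.1 CPM in stretched WT MCs, and at 10.4 and 47.1 CPM in static and 4.61 and 12.9 CPM in stretched CAV1-/- MCs. Each animal held 0.274 to 0.500 times its static level, and with the animal as a block Figf fell by 1.201 on the log2 scale (adjusted p = 0.0291, and 0.984 without the block, limma). Pgf, placental growth factor, a ligand of Flt1, was at 1.82 and 0.727 CPM in static and 4.68 and 2.16 CPM in stretched WT MCs, and at 8.65 and 1.44 CPM in static and 14.4 and 3.39 CPM in stretched CAV1-/- MCs. With the block Pgf rose by 0.85 (adjusted p = 0.0418, and 0.991 without it). Without both cultures of CAV1-/- animal 1 the blocked adjusted p was 0.0621 for Figf and 0.182 for Pgf. By edgeR with the block it was 0.0304 for Figf and 0.0562 for Pgf.

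Among the receptors, Kdr, the main signalling receptor of Vegfa, was at 32.3 to 66.0 CPM in WT cultures. It was at 7.75 and 9.12 CPM in the static and stretched culture of CAV1-/- animal 1 and at 32.5 and 64.0 CPM in those of animal 2. The low values of Kdr were in the animal with the highest leukocyte markers, whose part was not tested. Flt1, a decoy for Vegfa that also binds Vegfb and Pgf, was at 1.12 to 8.44 CPM and higher on stretch in 4 of 4 animals (averaged difference 0.51, adjusted p = 0.998, with the block 0.127, limma). Flt4, the receptor of Vegfc, was at 26.1 and 45.3 CPM in CAV1-/- animal 1 and at 1.97 to 8.83 CPM in the other 6 libraries. The lymphatic endothelial markers with a row were 2 of 6, Flt4 itself and 1 other, and without Flt4 they came to 2.31 and 2.82 CPM in that animal and 1.13 to 1.87 CPM elsewhere. Of the 13 VEGF ligands and receptors listed, 10 were higher and 3 lower on stretch on average, with a median of 0.26 against -0.01 over all genes. Of these 13, 4 were higher in all 4 animals (30.8%, beside 14.5% of all genes) and 1 was lower.

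**Figure D3:**
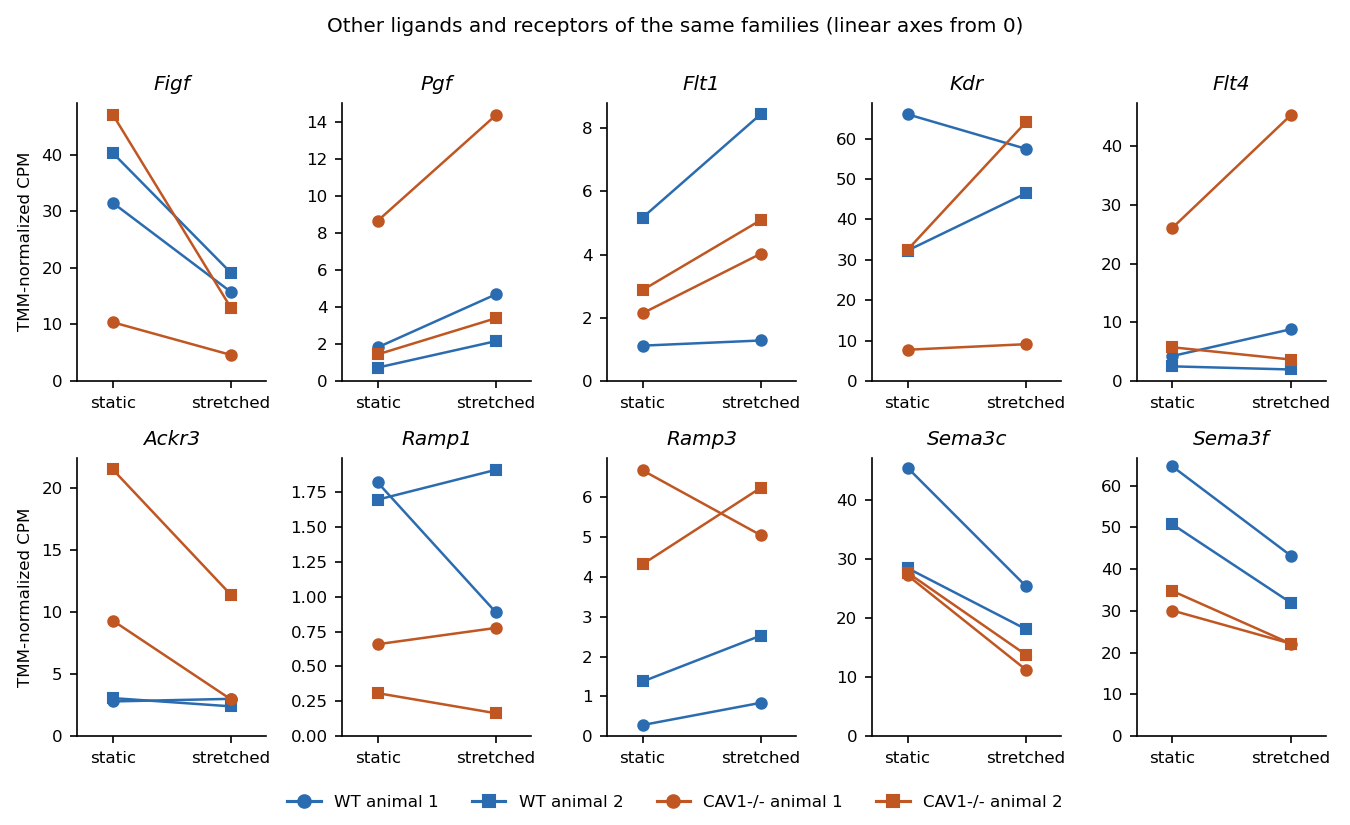
Level in TMM-normalized CPM (vertical axis, linear, from 0) of further ligands and receptors in the static and stretched culture of each animal, joined by a line, with colours for genotype and symbols for animal as in the legend. Figf, Sema3c and Sema3f go down and Pgf and Flt1 go up in all 4 animals, Flt4 is highest and Kdr lowest in CAV1-/- animal 1, and Ramp3 lies higher in all CAV1-/- than in all WT cultures.

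Nrp2, the co-receptor of Vegfc and of Sema3f (plus strand, chr1:62703285-62818695), was at 314.4 and 187.6 CPM in static and 353.8 and 240.4 CPM in stretched WT MCs. In CAV1-/- MCs it was at 390.4 and 147.3 CPM in static and 525.9 and 184.4 CPM in stretched culture. The animals differed more than the conditions did, so the groups overlapped, and within each animal the stretched culture held 1.13 to 1.35 times the static level. The averaged difference was 0.32 (SE 0.46, adjusted p = 0.999, with the animal as a block 0.0675, limma). Nrp1, the co-receptor of Vegfa and Sema3a, was the steadiest of the abundant members, at 100.3 to 121.9 CPM in WT and 105.1 to 156.0 CPM in CAV1-/- cultures, with an averaged stretch difference of 0.10 (SE 0.14, 95% interval -0.25 to 0.45, adjusted p = 0.999). The ratio of Nrp2 to Nrp1 CPM ranged from 1.40 to 3.53 and was higher on stretch in all 4 animals.

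Other ligands of the neuropilins include class 3 semaphorins, which guide growing axons and vessels. Sema3c was at 45.4 and 28.4 CPM in static and 25.4 and 18.1 CPM in stretched WT MCs, and at 27.2 and 27.7 CPM in static and 11.3 and 13.8 CPM in stretched CAV1-/- MCs. Its stretched cultures lay below every static culture, as for 1.47% of all genes, and with the animal as a block it fell by 0.90 (adjusted p = 0.0281, and 0.984 without the block, limma). Sema3f, the ligand of Nrp2, held 0.631 to 0.737 times its static level in the 4 animals and with the block fell by 0.57 (adjusted p = 0.0327, and 0.984 without it). Without both cultures of CAV1-/- animal 1 the blocked adjusted p was 0.131 for Sema3c and 0.136 for Sema3f. Of the 11 semaphorin and plexin genes with a row, 10 were lower and 1 higher on average, with a median of -0.16 against -0.01 over all genes, and 4 were lower in all 4 animals (36.4%, beside 16.9% of all genes). In WT MCs 0 were higher and 11 lower, with a median of -0.42, and in CAV1-/- MCs 5 were higher and 6 lower, with a median of -0.01, a difference between the genotypes that was not tested for the list. Plexin A4, a signalling partner of the neuropilins encoded by Plxna4, was lower in static CAV1-/- (16.7 and 57.3 CPM) than in static WT MCs (113.4 and 131.2 CPM), with a difference of -1.94 (SE 0.57, adjusted p = 0.396).

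Angpt1 was low, with 5 to 61 reads per library, all above the 3 reads taken as detectable. It was at 0.350 and 0.727 CPM in static and 0.789 and 1.54 CPM in stretched WT MCs, and at 0.742 and 2.47 CPM in static and 0.631 and 3.34 CPM in stretched CAV1-/- MCs, with an averaged stretch difference of 0.30 (SE 0.40, adjusted p = 0.999). The library kit does not mark strand as far as it is described, and 737 exon bases of Angpt1 overlap the antisense gene Gm17473, so reads of these genes cannot be told apart. Its receptor Tek was at 0.197 to 3.23 CPM, Angpt4 at 0.888 to 5.24 CPM, and Angpt2 and Tie1 had no row. Angptl4 (minus strand, chr17:33773750-33781830) was at 65.4 and 73.5 CPM in static and 146.3 and 72.0 CPM in stretched WT MCs. In CAV1-/- MCs it was at 111.0 and 135.0 CPM in static and 123.7 and 137.5 CPM in stretched culture. Only WT animal 1 showed a stretched level well above the static one, at 2.24 times, and the ratio was 0.979 to 1.11 in the other 3 animals. The averaged difference was 0.33 (SE 0.23, adjusted p = 0.991, limma).

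Other angiopoietin-like genes also differed in level between animals. Angptl2, a secreted factor made by mesenchymal cells, was at 53.7 to 289.0 CPM and higher on stretch in 4 of 4 animals (averaged difference 0.40, adjusted p with the block 0.0720). Angptl7 was at 97.0 and 192.6 CPM in static and 29.1 and 157.7 CPM in stretched WT MCs, and at 3.71 and 50.3 CPM in static and 0.291 and 24.5 CPM in stretched CAV1-/- MCs. It was lower on stretch in 4 of 4 animals, with an averaged difference of -1.22 (adjusted p = 0.994, with the block 0.0710). Angptl1 was at 0 to 4.52 CPM, Angptl6 at 1.09 to 3.25 CPM and Gm6484, the symbol of Angptl8 in the table, at 0.123 to 1.75 CPM. Of the 11 genes of this list with a row, 4 were higher and 7 lower on stretch, with a median of -0.11, and 0 passed the threshold with or without the block. Of these 11, 4 were lower in all 4 animals (36.4%, beside 16.9% of all genes) and 1 was higher (9.09%, beside 14.5%).

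The comparison of CAV1-/- with WT MCs asks how loss of CAV1 changes these genes in each condition. Vegfa was higher in both CAV1-/- cultures than in both WT cultures in static (259.9 and 306.9 against 136.1 and 168.5 CPM) and in stretched conditions (371.9 and 397.3 against 184.6 and 268.8 CPM). The difference was 0.89 in static (SE 0.21, 95% interval 0.37 to 1.42, unadjusted p = 0.00558, adjusted p = 0.264) and 0.78 in stretched culture (SE 0.21, 95% interval 0.26 to 1.31, unadjusted p = 0.0102, adjusted p = 0.464) by limma. DESeq2 on the recovered reads gave an adjusted p of 0.0177 in static culture. Without both cultures of CAV1-/- animal 1 the differences were 0.78 and 0.74, with adjusted p of 0.583 and 0.729. Vegfc was also higher without overlap in both conditions, by 1.25 in static (SE 0.46, unadjusted p = 0.0339, adjusted p = 0.547) and 1.23 in stretched culture (SE 0.46, unadjusted p = 0.0353, adjusted p = 0.713). With 1 culture left out in turn the Vegfc difference ranged from 0.993 to 1.5 in static culture and from 0.51, without stretched WT animal 2, to 1.95, without stretched WT animal 1, in stretched culture. Angptl4 was higher without overlap in static culture, by 0.81 (SE 0.32, unadjusted p = 0.0439, adjusted p = 0.586), and overlapped on stretch, where the difference was 0.34 (SE 0.32, adjusted p = 0.981).

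The Adm groups overlapped between genotypes, with a difference of -0.75 in static (SE 0.65, 95% interval -2.33 to 0.83, adjusted p = 0.863) and -0.96 in stretched culture (SE 0.65, 95% interval -2.54 to 0.62, adjusted p = 0.958). Without both cultures of CAV1-/- animal 1, whose static Adm of 30.9 CPM lay within the WT range, these differences were -1.46 and -1.69 (adjusted p = 0.500 and 0.543). Leaving out animal 2 of CAV1-/- instead, by its static culture for the first and its stretched culture for the second, gave -0.04 and -0.24, so the size of both differences rests on which CAV1-/- animal is kept. The remaining members had differences of -0.57 to 0.69 in static and -0.24 to 0.32 in stretched culture, with adjusted p of 0.840 or more in both. In static culture 0 of the 10 members were called by limma, beside 0.0732% of all genes (10 genes), and 3 had an unadjusted p of at most 0.05, beside 8.17% of all genes. In stretched culture 0 of the 10 were called, beside 0.0585% of all genes (8 genes), and 2 had an unadjusted p of at most 0.05, beside 6.26% of all genes. Members whose groups did not overlap and were higher in CAV1-/- MCs numbered 5 in static (16.1% of all genes) and 2 in stretched culture (14.6% of all genes), and 0 were lower without overlap (20.8% and 15.9% of all genes). The 5 included Calcrl and Angpt1, whose values were less than 0.1 CPM apart at the edge of the groups. The mesothelial markers given above also differed by genotype, and the leukocyte markers stood out in CAV1-/- animal 1. The fibroblast and pericyte markers differed between animals 1 and 2 of each genotype. The part of these markers in the differences of the members was not tested.

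**Figure D4:**
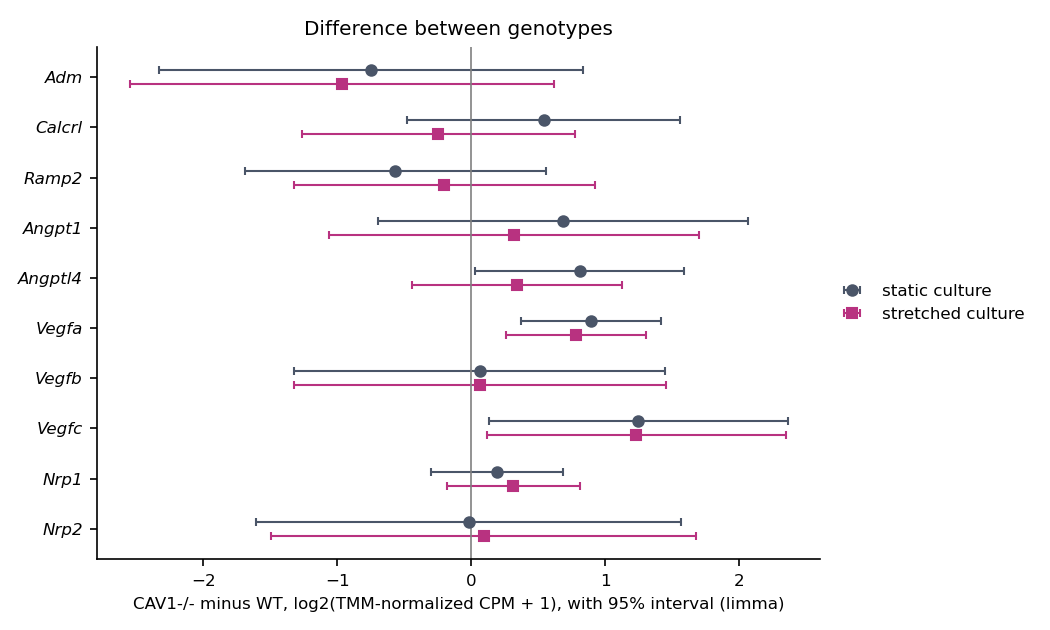
Difference between CAV1-/- and WT cultures for the 10 genes in log2(TMM-normalized CPM + 1), with the 95% interval from limma, in static (grey circles) and stretched culture (magenta squares), n = 2 cultures per group. The intervals of Vegfa and Vegfc lie above 0 in both conditions and that of Angptl4 in static culture, before adjustment for the number of genes tested.

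Of 30 HIF target genes listed, which include Adm, Vegfa and Angptl4, all 30 were tested. Of the 29 without Adm, 23 were higher and 6 lower on average, with a median of 0.08 against -0.01 over all genes. Of these 29, 8 were higher in all 4 animals (27.6%, beside 14.5% of all genes) and 3 were lower (10.3%, beside 16.9%). The 3 were Egln3, Ndrg1 and Stc2, named after their values were seen, with averaged differences of -0.35, -0.27 and -0.26. Ddit4, a stress-induced inhibitor of mTOR signalling, had a difference of 0.39 (unadjusted p = 0.0232, adjusted p = 0.984, with the block 0.105). Without a block limma called 0 of the 29, of which 2, Ddit4 and Vegfa, had an unadjusted p of at most 0.05, and with the block it called Vegfa.

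Between genotypes, 26 of the 29 HIF targets without Adm had a higher mean in CAV1-/- MCs in static culture, as did 26 in stretched culture, with medians of 0.43 and 0.36 against -0.01 and 0 over all genes. Without a block limma called 0 of the 29, and 4 in static and 3 in stretched culture had an unadjusted p of at most 0.05. Without both cultures of CAV1-/- animal 1, which leaves 1 culture in each CAV1-/- group, 19 of the 29 were higher in static and 15 in stretched culture, with medians of 0.26 and 0.00695. The mesothelial markers differed by genotype, at 926.6 to 1178.3 CPM in CAV1-/- against 3122.9 to 4137.5 CPM in WT cultures, and the leukocyte markers stood out in CAV1-/- animal 1, and the part of neither in this shift was tested. Hk2, which starts glycolysis by phosphorylating glucose, was at 65.5 to 82.5 CPM in WT and 103.4 to 141.9 CPM in CAV1-/- cultures, with differences of 0.65 (SE 0.17, unadjusted p = 0.00933, adjusted p = 0.338) and 0.75 (SE 0.17, unadjusted p = 0.00461, adjusted p = 0.352). Car12, a carbonic anhydrase, was at 1.11 to 2.42 CPM in WT and 2.72 to 5.65 CPM in CAV1-/- cultures (difference 1.14 in static culture, adjusted p = 0.429). Of 16 listed targets of PPAR, the lipid-sensing factors that also induce Angptl4, 9 were higher in static and 7 in stretched CAV1-/- culture. The part of HIF or PPAR in the level of Angptl4 was not tested. Pdk4, which limits the entry of pyruvate into mitochondria, was lower in CAV1-/- MCs in both conditions, at 3.34 to 8.78 CPM against 13 to 17.9 CPM (differences -1.13 and -1.20, adjusted p = 0.488 and 0.596). On stretch, 5 PPAR targets were higher and 11 lower on average, with a median of -0.06, and Ehhadh, an enzyme of peroxisomal fat oxidation, was lower in all 4 animals (difference -0.33, adjusted p = 0.984). Ucp2, a mitochondrial carrier, was at 96.7 to 184.1 CPM in WT and 55.4 to 102.9 CPM in CAV1-/- cultures.

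**Figure D5:**
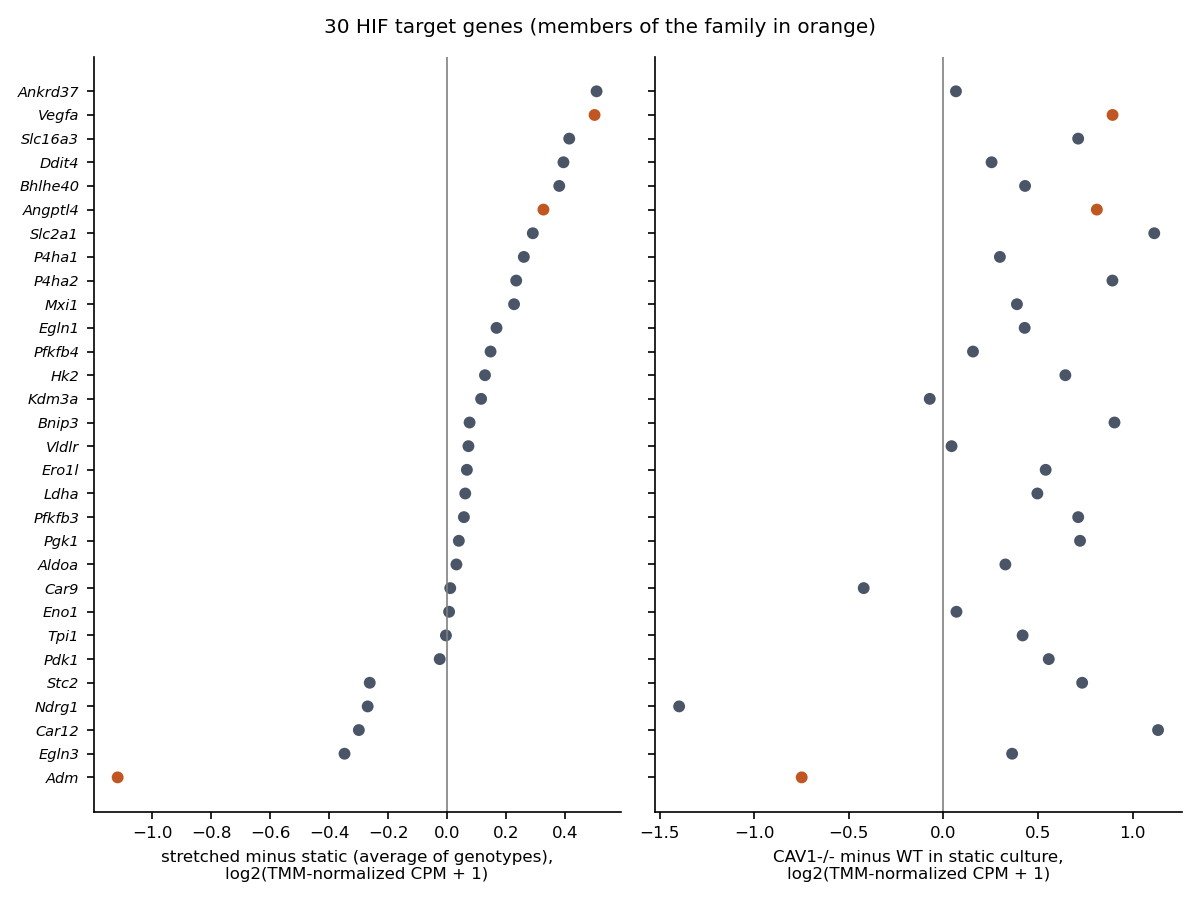
Log2(TMM-normalized CPM + 1) difference of 30 HIF target genes on stretch, averaged over the genotypes (left), and between CAV1-/- and WT MCs in static culture (right), 1 point per gene, ordered by the stretch difference. Adm, Vegfa and Angptl4 are in orange. Adm is at -1.12 on stretch while Vegfa is at 0.50 and Angptl4 at 0.33.

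Over the 8 libraries, which come from 4 animals, the genes whose log2 level followed Adm most closely among 10796 with a mean of at least 5 CPM were Mul1 (Pearson r 0.971), Osr1 (0.950), Man2b2 (0.947), Cryl1 (0.947) and Tubb4b (0.944). The most opposite were Tomm20 (-0.989), Arcn1 (-0.985), Zfp260 (-0.951), Tmem263 (-0.950) and Rpn1 (-0.949). Osr1, a transcription factor of the embryonic mesoderm, went from 16.2 and 20.02 to 8.38 and 9.12 CPM on stretch in WT and from 14.01 and 4.22 to 9.41 and 2.298 CPM in CAV1-/- MCs. It was lower on stretch in 4 of 4 animals, as were 16.9% of all genes. Because Osr1 was picked for its r to Adm, this fall is not a separate result. Mul1, a mitochondrial ubiquitin ligase, varied only from 23.7 to 28.4 CPM, so its high r does not mean a change of similar size. Among the members, r to Adm was -0.73 for Vegfc, -0.70 for Angptl4, -0.69 for Vegfa, -0.01 for Nrp1, 0.16 for Vegfb, 0.21 for Nrp2 and 0.35 for Calcrl. These points share animals and library depth with stretching, and they are given as a description.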

How the data were processed

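RNAseq was measured in 8 libraries, 4 groups of n = 2 (animals labelled 3 and 4 for WT, 1 and 2 for Cav-1-). The legend of the published figure on these data states a larger n per condition, and only the labelled libraries were analysed here. The authors deposited a signal per gene, TMM-normalized CPM: reads were trimmed with cutadapt, mapped to the GRCm38 transcriptome and quantified by RSEM, as far as the labels and methods state. The values are whole multiples of the value of 1 read (100% within 0.01 reads), from which counts were recovered for edgeR and DESeq2. No column was left unmapped. Positions, exon lengths and overlaps of genes come from GENCODE M21 (GRCm38), which held 13597 of the identifiers.

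The test covered genes that reached 1 CPM in 2 or more libraries (22 left out) and was made by limma 3.58.1 (R 4.3.3) on log2(value + 1), with eBayes and trend, 1 mean per group, no block and Benjamini-Hochberg adjustment over all 13665 genes at 0.05. The fit has 4 residual degrees of freedom. With the animal as a block there are fewer, and fewer again without both cultures of CAV1-/- animal 1. The loss of calls on that omission can therefore reflect fewer degrees of freedom, which was not tested. Alternatives were pseudocounts of 0.1 and 5, no filter, a mean of at least 5, median-of-ratios rescaling, no trend, a replicate block, edgeR 4.0.16, DESeq2 1.42.0 and each culture left out. Omission of both cultures of CAV1-/- animal 1 was chosen after seeing the data. The labels give the animal, and static and stretched cultures of an animal deviated together (r = 0.703 in WT, 0.850 in CAV1-/-), so the animal is the block for stretch. Without the block this pairing is ignored, so stretch p-values can be too large and intervals too wide. Replicates within a group are single cultures of separate animals, and p-values measure the spread between these few samples. The fit without a block takes its 4 residual degrees of freedom from the 2 cultures of each animal as if separate. The spread between animals is thus counted in both conditions, so genotype p-values can be too small and intervals too narrow. The tests were also run on simulated counts with known changes. Those counts held no difference between animals, so they cannot show how the fits handle it.

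The members and the lists were chosen with earlier results of these data known. Genes named are the 10 members, receptors and ligands of the same families, up to 3 genes per list with the smallest unadjusted p besides any called, and the 5 genes most and least like Adm. Others are identified where named.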

Additional observations from a re-analysis of the deposited data

Results flagged for a closer look

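Calcrl and Ramp2 moved in opposite directions on stretch in the 2 genotypes, with both animals of each genotype going the same way. For Calcrl the stretch change in CAV1-/- minus that in WT was -0.787 on the log2(CPM + 1) scale (limma unadjusted p = 0.231, adjusted p = 1). For Ramp2 it was 0.367 (limma unadjusted p = 0.593, adjusted p = 1), from 0 to 17 reads per library. Neither difference passed the test, and 8.98% of all genes show such a split.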

How the results depend on the processing

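Without a block, 0 genes were called for stretch in WT, in CAV1-/- and on average, 10 for genotype in static and 8 in stretched culture. With the replicate block these became 0, 1, 201, 246 and 110, and with edgeR and the block 0, 2, 152, 229 and 92. DESeq2 gave 3, 7, 39, 309 and 238. In static culture edgeR without the block called 2 and limma without trend 6. Leaving out 1 culture gave 0 to 8 genes in static and 0 to 7 in stretched culture for genotype, and omitting both cultures of CAV1-/- animal 1 gave 0 in each. For genotype the block is a number shared by different animals. It still takes the static and stretched cultures of an animal as separate, so genotype p-values with this block can also be too small. Cultures of the same number deviated together across genotypes (r = 0.522 in static, 0.484 in stretched culture), for a reason the labels do not give. With this block static Vegfa had a log2 difference of 0.894 (adjusted p = 0.0364, limma). By edgeR with the block it was 0.899 (0.0449), and by DESeq2 without it 0.922 (0.0177). For stretch, where the block is the animal, Vegfa had 0.499 (0.0327), or 0.501 (0.0427) by edgeR. The block changed no other call among the members. Of the 29 HIF targets without Adm it called 2 between genotypes in static culture, Vegfa and Slc2a1, and 1 in stretched culture, Slc2a1, named after its values were seen. Static Nrp2 between genotypes changed from -0.02 to 0.00787 with median-of-ratios rescaling, 0.0993 with edgeR and 0.131 with DESeq2. Omitting both cultures of CAV1-/- animal 1 reversed Vegfb (-0.364 static, -0.67 stretched), Nrp1 (-0.0289 static) and Nrp2 (-0.658 stretched). With 1 culture left out in turn, the log2 differences that changed sign on stretch ranged over Calcrl -0.218 to 0.307, Ramp2 -0.204 to 0.282, Vegfb -0.104 to 0.633, Angpt1 -0.055 to 0.651, Nrp1 -0.00624 to 0.216 and Nrp2 -0.0574 to 0.696. Between genotypes in stretched culture they ranged over Calcrl -0.606 to 0.12, Ramp2 -0.617 to 0.218, Vegfb -0.67 to 0.803, Angpt1 -0.386 to 1.03, Angptl4 -0.164 to 0.849 and Nrp2 -0.658 to 0.848. The interaction was followed only for Calcrl, Ramp2 and Vegfa. Its differences that changed sign ranged over Ramp2 -0.119 to 0.853 and Vegfa -0.38 to 0.159. Between genotypes in static culture they ranged over Vegfb -0.364 to 0.496, Nrp1 -0.0289 to 0.415 and Nrp2 -0.718 to 0.682. The results followed leave out the interaction of the other members, and the stretch change within a genotype except for Vegfa. Of 34 such results on members, without the stretch change of Adm that chose them, 17 never changed sign. The cause of these changes was not tested. Where 1 culture is left in a group, it is assumed to vary like the others. Rescaling moved the libraries by -1.12% to 1.75%. Ramp2 and Angpt1 rest on few reads, which limits what can be seen of them.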
